A study of Mus musculus with 2 samples.

Results

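Basement membrane genes were followed in dissociated mouse lung: the collagen IV chains Col4a1, Col4a2, Col4a3, Col4a4 and Col4a5, the laminin α chains Lama3, Lama4 and Lama5, and nidogen-1 (Nid1). They were taken by symbol, and each of the 9 matched 1 of the 32285 gene rows of the deposited matrices. The study asked how loss of Cebpa, a transcription factor of alveolar type 2 (AT2) cells, alters the lung, and sequenced 1 single-cell 3′ library per genotype. The Cebpa fl/fl library (labelled Cebpa FF) came from mice with floxed Cebpa alleles and no Cre. The CebpaΔSftpc library (labelled Cebpa KO) came from mice with the same floxed alleles and Sftpc-CreERT2, in which the promoter of the surfactant gene Sftpc, active mainly in AT2 cells, drives a tamoxifen-dependent Cre. Per the study's methods, deletion was induced by 5 daily injections of tamoxifen at 75 mg/kg, followed by weekly injections where analysis came later than 3 months. The lungs were taken 26 weeks after the first injection, and 3 mice of mixed genetic background were used per genotype. Mice were 3 months old unless otherwise stated, and whether that age is at injection or at collection is not given in the sources used here. The labels speak of a FACS protocol, whereas the methods describe whole-lung suspensions. No file assigns cells to mice, so each genotype is 1 sample and no difference between the genotypes could be tested.

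The basement membrane is a thin sheet of extracellular matrix under epithelium and endothelium and around pericytes and smooth muscle. Collagen IV chains wind into trimers: Col4a1 pairs with Col4a2 in most tissues, whereas Col4a3, Col4a4 and Col4a5 form a separate trimer in the glomerulus and the alveolus. Laminins are cross-shaped trimers of an α, a β and a γ chain, and the α chain determines much of which receptor is bound. The Lama3 chain is typical of epithelium, Lama4 of vessels and mesenchyme, and Lama5 of mature epithelial and vascular sheets, while nidogen links the laminin and collagen IV networks. In the alveolus the thin side of the gas exchange barrier is a fused sheet between flat alveolar type 1 (AT1) cells and capillary endothelium.

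Several of these genes lie head to head. Col4a1 (chr8:11198423-11312826, minus strand) and Col4a2 (chr8:11312805-11449287, plus strand) overlap by 22 bases at the first exons in the GENCODE M21 annotation of GRCm38. Col4a4 (chr1:82448423-82586849, minus strand) and Col4a3 (chr1:82586921-82722059, plus strand) are separated by 71 bases. Col4a5 (chrX:141475385-141689234, plus strand) lies 1308 bases from Col4a6 on the opposite strand. Of the others, Lama4 (chr10:38965515-39110188, plus strand), Lama5 (chr2:180176373-180225859, minus strand) and Nid1 (chr13:13437551-13512269, plus strand) lie apart from other members. The stretches between the paired starts are shown because the levels of the paired chains are compared below. They come from RefSeq promoter windows on GRCm38.p6 and are written on the plus strand; capitals mark GGGCGG, the letters of a GC box. The shared stretch is chr8:11312805-11312826 and the stretch between the other pair is chr1:82586850-82586920.
shared by Col4a1 and Col4a2: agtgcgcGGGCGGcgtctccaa
between Col4a4 and Col4a3: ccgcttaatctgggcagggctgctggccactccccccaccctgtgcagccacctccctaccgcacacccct
G and C made up 72.7% of the shared stretch and 69.0% of the stretch between Col4a4 and Col4a3. Promoter windows from 250 bases before to 50 after the start were at hand for 6 of the 9 members and not for Col4a3, Lama3 and Lama4. On either strand GGGCGG stood in 5 of the 6, all but Col4a4, against 35.7% of 32851 windows of the same length. The median share of G and C was 68.7% in the 6 windows and 52.7% in all windows, and its part in this count was not tested. The Col4a1 and Col4a2 windows overlap, and both hold the GGGCGG of the shared stretch, so these are not separate sequences. CCAAT stood in the windows of Col4a1, Col4a2, Col4a5 and Nid1, against 37.4%. TATAAA, in 13.6% of all windows, and TTGCGCAA, a palindrome of the CEBP family in 0.183%, stood in none of the 6. The letters GGAATG, bound by TEAD factors, stood in the Nid1 window alone, against 14.7% of all windows.

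The Cebpa FF library held 11721 cell barcodes and 69200420 UMIs (unique molecular identifiers, each counting 1 captured RNA molecule), and the Cebpa KO library 13373 barcodes and 64697396 UMIs. The median was 4835 UMIs per kept cell in Cebpa FF and 2607 in Cebpa KO, and 45 barcodes occurred in both libraries. Cells were gated by raw UMIs of marker genes that are not members, which placed 94.8% of kept cells in Cebpa FF and 82.2% in Cebpa KO. The gates held 106 and 29 AT1 cells, 457 and 227 AT2 cells, 7839 and 7441 endothelial cells, and 1708 and 1006 stromal cells (fibroblasts, smooth muscle and pericytes) in Cebpa FF and Cebpa KO. The immune gate, with 125 and 1821 cells, served as the background, since leukocytes are not known as a main source of these chains. Markers kept out of the gating followed the names: Aqp5 stood at 2567 and 2113 CPM (UMIs of a gene per 1000000 UMIs of the gate) in the AT1 gate, Sftpc at 191384 and 135494 in the AT2 gate, and Pdgfrb at 244 and 194 in the stromal gate. Cebpa itself stood at 153 CPM in AT2-gated cells of Cebpa FF (1421 UMIs) and at 123 in Cebpa KO (189 UMIs). Which bases the floxed allele loses is not given in the sources used here, so these 3′ tags do not check the labels.

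The collagen IV trimer of Col4a3, Col4a4 and Col4a5 was largely an AT1 matter, with exceptions in stromal cells. Levels are in CPM, with exact Poisson 95% intervals that cover counting error only; they are compared between gates and libraries and not between genes. Col4a3 stood at 1340 (1237 to 1451) in AT1-gated cells of Cebpa FF and at 563 (431 to 723) in Cebpa KO. The next gate was AT2, with 14.6 and 13.1, so the AT1 level was 92.0 times higher in Cebpa FF and 43.1 times higher in Cebpa KO. Endothelial cells stood at 1.79 and 2.73 (72 and 94 UMIs) and immune cells at 1.13 and 0.590 (1 UMI and 9 UMIs). Endothelial Col4a3 was thus low in both libraries, though above the immune level in Cebpa KO. Being many, endothelial cells still held 7.33% and 38.2% of the Col4a3 UMIs. Col4a4, its partner across the 71 bases, stood at 1314 in AT1-gated cells of Cebpa FF and at 314 in Cebpa KO. The AT2 level of Col4a4 was 36.8 (33.0 to 40.9) and 43.1 (33.3 to 54.8), the stromal level 13.8 and 14.1, and the immune level 2.25 and 1.57. AT2-gated cells thus carried Col4a4 above the immune background in both libraries.

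Col4a5, the X-linked chain of this trimer, had a different distribution. It stood at 338 (287 to 395) in AT1-gated cells of Cebpa FF and at 148 (84.4 to 240) in Cebpa KO. The stromal gate came next with 75.2 (70.1 to 80.5) and 95.4 (87.1 to 104), far above the 2.25 and 0.721 of immune cells. Being many, stromal cells held 62.6% of the UMIs of Col4a5 in Cebpa FF and 63.2% in Cebpa KO. Within the stroma it belonged to fibroblasts, at 81.0 and 93.8, and smooth muscle, at 89.0 and 140.1. Pericytes had almost none: 3 UMIs in 194 cells of Cebpa FF and 0 UMIs in 39 cells of Cebpa KO. Its X-chromosome neighbour Col4a6, which forms a trimer with Col4a5 around smooth muscle, stood at 25.2 and 33.5 in the stromal gate, at 28.3 and 9.23 in the AT1 gate (13 UMIs and 1 UMI), and at 0.546 and 0.814 in the endothelial gate.

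**Figure D1:**
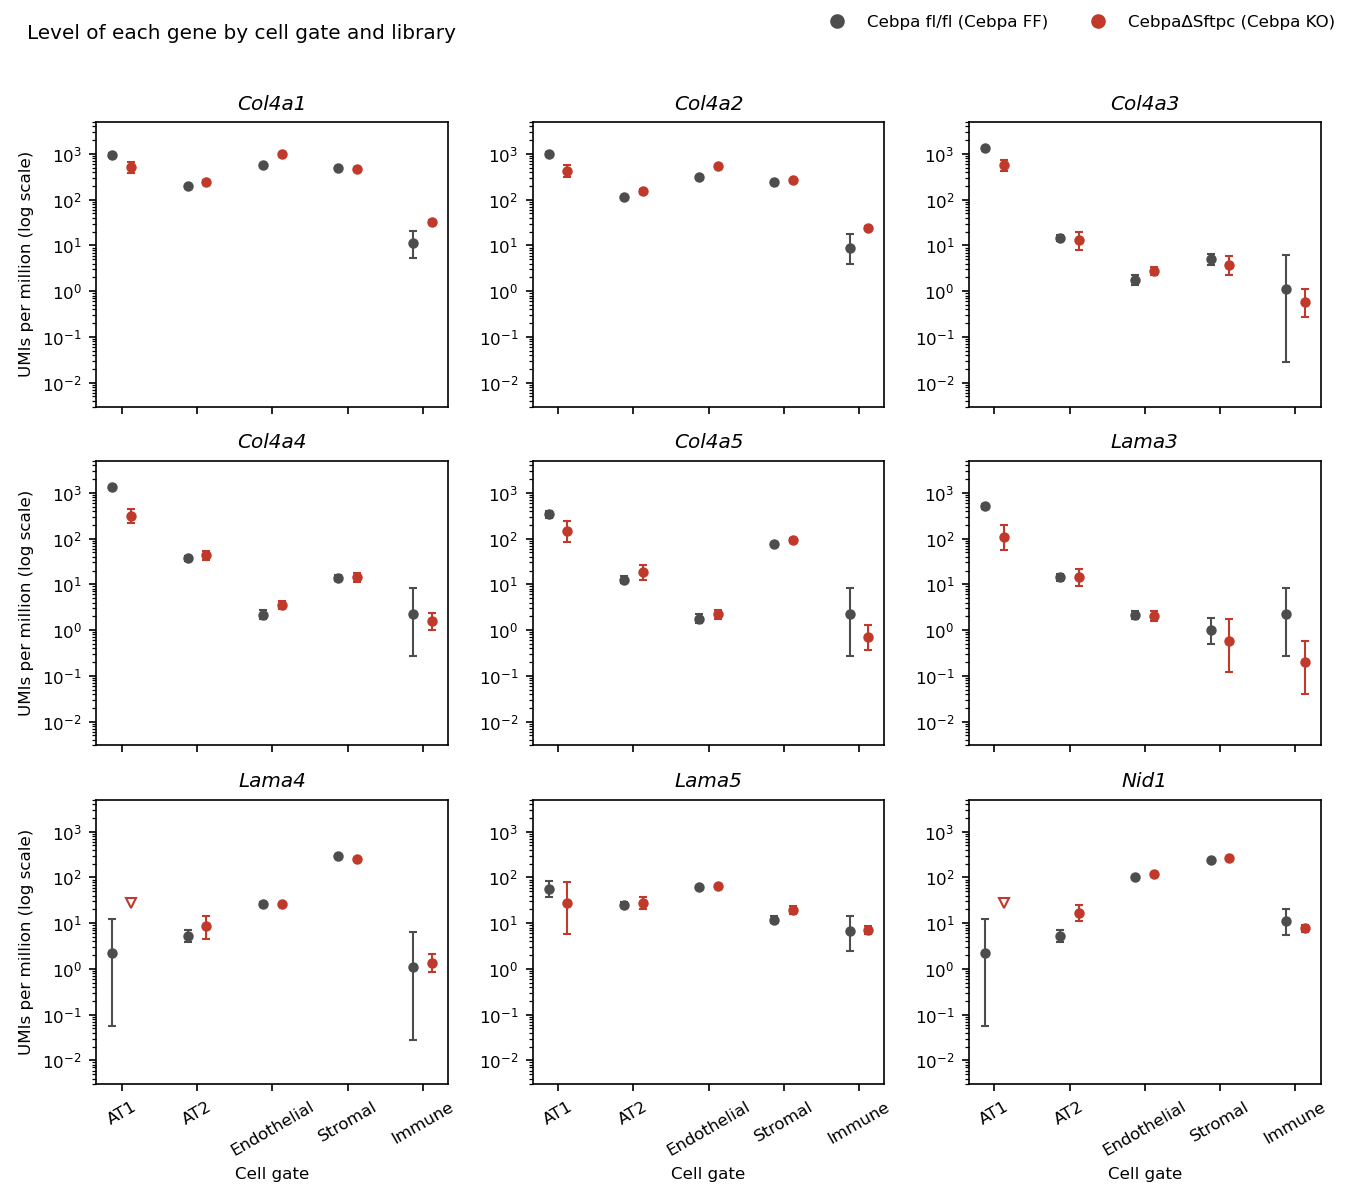
Level of each of the 9 genes (CPM, log axis) in the AT1, AT2, endothelial, stromal and immune gates; grey points are the Cebpa FF library, red points the Cebpa KO library, bars are exact Poisson 95% intervals (counting error only), and open triangles mark 0 UMIs drawn at the level of 3 UMIs. Col4a3, Col4a4 and Lama3 peak in the AT1 gate, Lama4 and Nid1 in the stromal gate, and Col4a1 and Col4a2 are high in AT1, endothelial and stromal cells.

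Lama3, an α chain of epithelial laminin that joins the β chain Lamb3, was likewise highest in AT1-gated cells. The gene lies at chr18:12333819-12583013 on the plus strand. It stood at 512 (449 to 582) in Cebpa FF and at 111 (57.2 to 193) in Cebpa KO. AT2-gated cells stood at 14.1 and 14.4, endothelial cells at 2.13 and 2.06, and stromal cells at 1.01 and 0.588. Its partner chain Lamb3 stood at 353 and 185 in the AT1 gate. Col4a3, Col4a4 and Col4a5 were detected together in 29 of 106 and 4 of 29 AT1-gated cells and in 16 of 457 and 2 of 227 AT2-gated cells. The same was so in 11 of 1708 and 4 of 1006 stromal cells, in 0 of 7839 and 2 of 7441 endothelial cells and in 0 immune cells. Detection followed depth: of the 39 AT1-gated cells of Cebpa FF with at least 3000 UMIs, 28 held all 3 of these collagen chains. In Cebpa KO 3 of 8 such cells did.

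Col4a1 and Col4a2, the chains of the common collagen IV, were shared by AT1, endothelial and stromal cells. Col4a1 stood at 933 (847 to 1026) in AT1-gated cells, 582 (575 to 590) in endothelial, 482 (469 to 495) in stromal and 197 (188 to 207) in AT2-gated cells of Cebpa FF. In Cebpa KO it stood at 508 (382 to 661), 991 (981 to 1002), 473 (454 to 492) and 246 (221 to 272). The order of the highest gates was therefore AT1 before endothelium in Cebpa FF, 1.60-fold (1.45 to 1.76), and endothelium before AT1 in Cebpa KO, 1.95-fold (1.5 to 2.59). Col4a2 stood at 996, 308, 244 and 112 in the AT1, endothelial, stromal and AT2 gates of Cebpa FF and at 434, 553, 270.0 and 153 in Cebpa KO. For Col4a2 the AT1 gate led by 3.24-fold in Cebpa FF, while in Cebpa KO the endothelial gate led by 1.27-fold with an interval of 0.958 to 1.73, so that these neighbours did not separate. Because endothelial cells were most numerous, they held 72.3% of the UMIs of Col4a1 in Cebpa FF and 84.5% in Cebpa KO, and AT1-gated cells 1.32% and 0.136%.

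**Figure D2:**
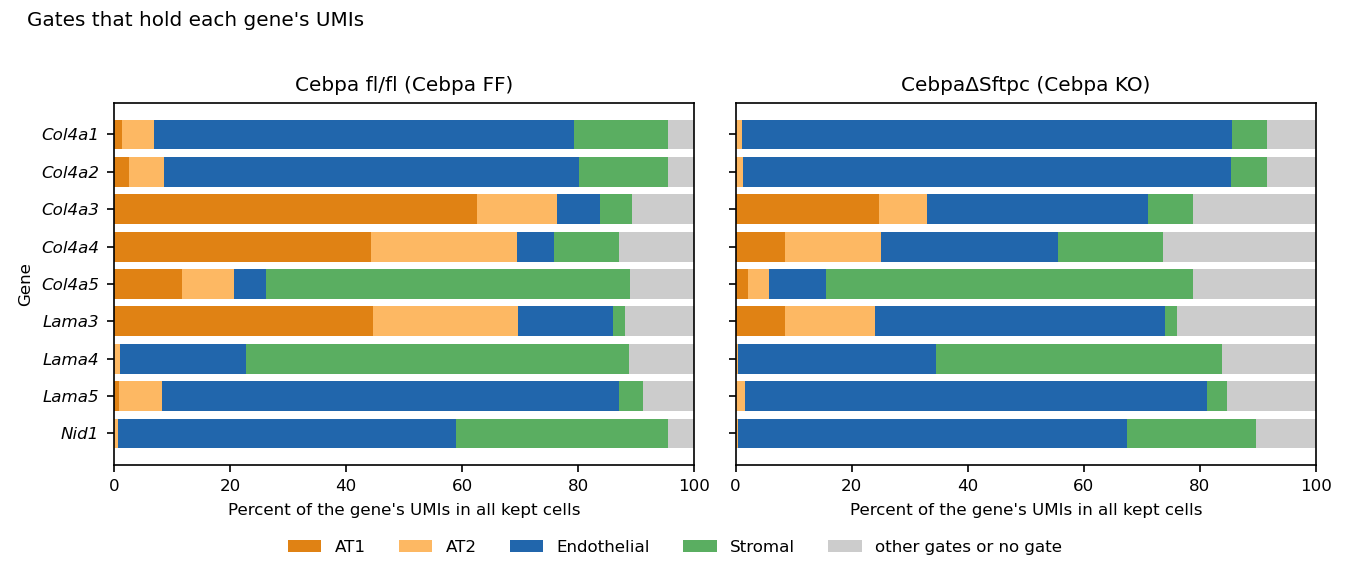
Percent of each gene's UMIs in all kept cells (horizontal axis) that lay in the AT1, AT2, endothelial and stromal gates or elsewhere, 1 bar per gene, Cebpa FF library on the left and Cebpa KO library on the right. AT1 cells held 62.6% of the UMIs of Col4a3 in Cebpa FF and 24.8% in Cebpa KO, where the AT1 gate has 29 cells in place of 106.

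The balance between the paired chains differed between cell types. Col4a2 gave 51.6% (48.3 to 55.0) of the joint UMIs of Col4a1 and Col4a2 in AT1-gated cells of Cebpa FF and 46.1% (36.2 to 56.2) in Cebpa KO. In endothelial cells the share was 34.6% and 35.8%, in stromal cells 33.6% and 36.4%, and in AT2-gated cells 36.3% and 38.4%. In Cebpa FF the AT1 interval lay above the values of the other gates, whereas in Cebpa KO it included the shares of the AT2 and stromal gates. Within endothelium the share was higher in aerocytes, the large capillary cells of gas exchange, at 38.5% and 39.8%, than in general capillary cells, at 33.4% and 34.4%. Pericytes gave 40.9% and 43.1%. Col4a4 gave 49.5% (46.7 to 52.4) of the joint UMIs of Col4a3 and Col4a4 in AT1-gated cells of Cebpa FF, but 71.6% (67.4 to 75.6) in AT2-gated cells. In Cebpa KO these shares were 35.8% (26.2 to 46.3) and 76.7%. Since 3′ capture differs between transcripts, the shares compare cells and not amounts of chain.

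Lama4, the α chain of vascular and mesenchymal laminin, was highest in the stroma among the 4 gates. It stood at 298 (288 to 308) in stromal cells of Cebpa FF and 251 (238 to 266) in Cebpa KO, and at 26.7 and 25.8 in endothelial cells. AT1-gated cells held 1 UMI in Cebpa FF and 0 in Cebpa KO, where 3 UMIs would be 27.7 CPM and the upper Poisson limit of 0 UMIs is 34.0. Summed over the gates, the chain was 11.1 times higher in the stroma than in endothelium in Cebpa FF. Ductal myofibroblasts, the contractile cells of alveolar ducts, stood at 428 and 410, and pericytes at 266 and 367. Lama4, Lamb1 and Lamc1, which join in 1 laminin, were detected together in 573 of 1708 stromal cells of Cebpa FF and 196 of 1006 of Cebpa KO. The stromal gate had a median of 5857 UMIs per cell in Cebpa FF and 2195.5 in Cebpa KO. The part of depth in this detection was not tested.

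Within endothelium Lama4 was highest in lymphatic cells, which drain fluid from the lung. Lymphatic endothelium stood at 596 (542 to 654) in Cebpa FF, above the whole stromal gate and its ductal myofibroblasts, and at 401 in Cebpa KO, general capillary cells at 14.8 and 20.7, and aerocytes at 4.46 and 8.30. Lymphatic cells were 1.68% and 1.48% of the endothelial gate and held 41.1% and 20.7% of its Lama4 UMIs, a level 37.2 times (32.8 to 42.0) and 19.4 times (16.4 to 22.8) that of the other endothelial-gated cells. The same 132 and 110 cells were rich in the partner chains Lamb1, at 102 and 74.2 against 4.53 and 9.07 in general capillary cells, and Lamc1, at 179 and 153 against 32.8 and 45.2. Nid2, the other nidogen, stood at 83.4 and 65.5 in lymphatic cells and at 1.63 and 2.01 in general capillary cells. The fibroblast marker list summed to 144 and 118 CPM in lymphatic cells, against 131 and 238 in the whole endothelial gate and 15853 and 14402 in the stromal gate.

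Lama5, the α chain that binds integrins and Bcam, had its highest level of the 4 gates in endothelium. It stood at 60.8 (58.5 to 63.3) and 63.4 (60.8 to 66.1) in endothelial cells and 25.4 and 28.1 in AT2-gated cells. Stromal cells stood at 11.8 and 19.2, and immune cells at 6.76 and 7.21. Ciliated cells, outside the 4 gates, stood at 44.8 and 60.7, and smooth muscle within the stroma at 29.2 and 57.5 (21 and 32 UMIs). The AT1 level rested on 26 UMIs in Cebpa FF, 56.7 (37.0 to 83.0), and on 3 UMIs in Cebpa KO, 27.7 (5.71 to 80.9), and did not separate from endothelium in either library. Within endothelium Lama5, like Lama4, was lower in aerocytes than in general capillary cells. Lama5 stood at 78.6 and 86.5 in general capillary cells and 60.7 and 60.0 in venous cells, but at 15.6 and 25.0 in aerocytes and 12.1 and 13.1 in lymphatic cells. Aerocyte Lama5 was thus 0.199 and 0.289 times the general capillary level.

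Nid1, the linker between networks, ran the other way. It stood at 242 (233 to 251) and 269 (255 to 283) in stromal cells and at 105 (102 to 108) and 120.1 (116 to 124) in endothelium, a stromal lead of 2.31-fold and 2.24-fold. Aerocytes stood at 168 and 161 and general capillary cells at 82.2 and 103, so aerocyte Nid1 was 2.04 times (1.91 to 2.19) and 1.57 times (1.46 to 1.68) higher. Pericytes, at 363 and 399, and adventitial fibroblasts, at 334 and 474, were the richest stromal cells. Ductal myofibroblasts, rich in Lama4, were poor in Nid1, at 50.3 and 64.5. AT1-gated cells held 1 UMI and 0 UMIs.

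Pericytes, the mural cells embedded in the capillary basement membrane, had the highest Col4a1 and Col4a2 levels of the endothelial and stromal subsets. Col4a1 stood at 1975 in pericytes of Cebpa FF and 2022 in Cebpa KO, and Col4a2 at 1366 and 1532. In Cebpa FF pericyte Col4a1 was 3.12 times (2.97 to 3.28) and Col4a2 4.30 times the general capillary level; in Cebpa KO these folds were 1.61 and 2.33. Against fibroblasts the pericyte level of Col4a1 was 5.74 and 4.79 times higher. The endothelial marker list summed to 794 and 1035 CPM in pericytes, against 14312 and 13509 in the endothelial gate.

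**Figure D3:**
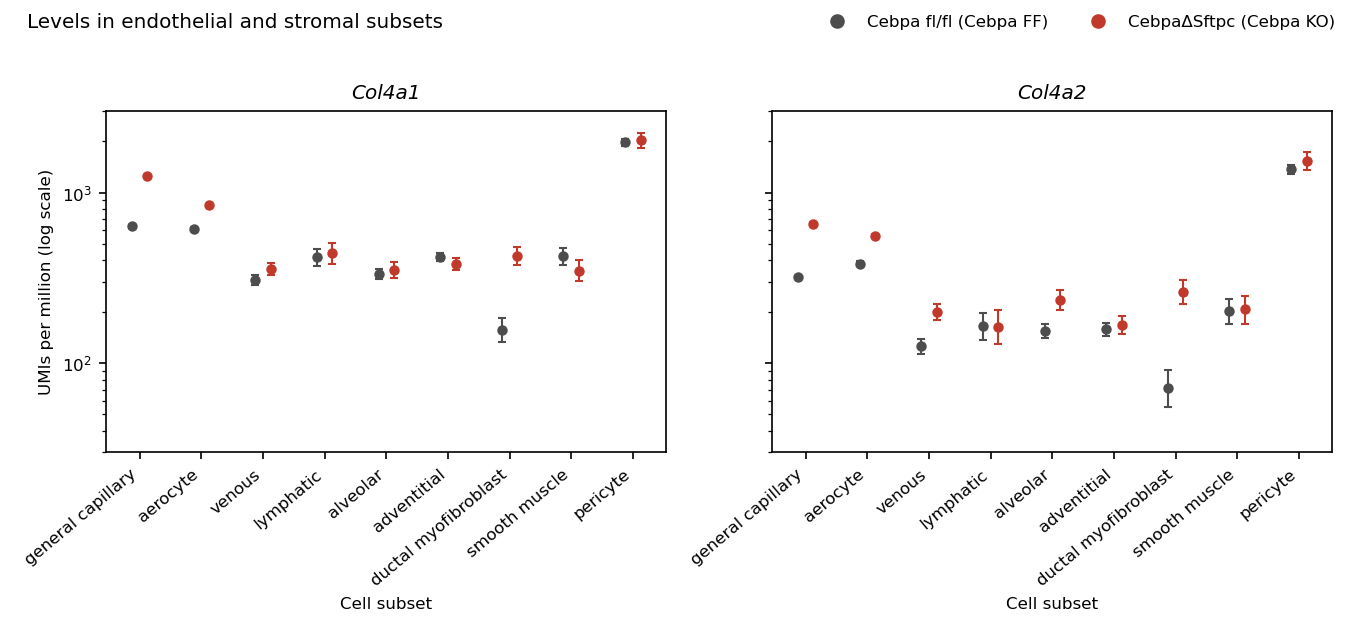
Levels of Col4a1 (left) and Col4a2 (right) in CPM on a log axis for 9 endothelial and stromal subsets; grey is Cebpa FF, red is Cebpa KO, and bars are exact Poisson 95% intervals (counting error only). Pericytes are highest in both libraries, and the libraries lie apart for both genes in general capillary cells, aerocytes and ductal myofibroblasts, and for Col4a2 also in venous cells and alveolar fibroblasts.

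Adventitial fibroblasts, which line larger vessels and airways, carried Col4a4 far above the level of alveolar fibroblasts. Col4a4 stood at 38.6 (32.2 to 45.8) and 30.5 in adventitial fibroblasts and at 1.43 and 1.09 in alveolar fibroblasts (4 UMIs and 1 UMI). The difference was 26.9-fold (10.3 to 100.2) in Cebpa FF. In Cebpa KO it was 9.31-fold (3.01 to 46.6) with the 1 alveolar UMI set at 3, so the 2 folds are not compared. At least 1 UMI of Col4a4 was found in 65 of 370 adventitial cells (17.6%) of Cebpa FF and 31 of 304 (10.2%) of Cebpa KO, against 1.60% and 1.26% of immune cells. With every cell thinned to 1000 UMIs the adventitial shares were 4.18% and 1.49%, and the immune shares 0.847% and 0.399%. Without the cells holding a UMI of a mesothelial marker the adventitial level was 38.9 and 31.9, an alternative added after the data were seen. Col4a4 gave 77.8% and 78.5% of the joint Col4a3 and Col4a4 UMIs there, near the share in AT2-gated cells.

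The gates divided 7 of the 9 genes by at least 2-fold in Cebpa FF (highest gate over the next) and 6 of 9 in Cebpa KO. Over all genes with at least 50 UMIs this held for 29.6% of 13972 in Cebpa FF and for 41.7% of 13596 in Cebpa KO. The exceptions in Cebpa FF were Col4a1 and Lama5, and those in Cebpa KO were Col4a1, Col4a2 and Col4a5. For Lama4 in Cebpa KO the next gate was AT1, set at its 3-UMI level. The same floor held for all genes, and in the small AT1 gate of Cebpa KO it was 27.7 CPM. Low genes could thus count as led by AT1, as did Nid2 at 2.24-fold with 0 AT1 UMIs in Cebpa KO. The shares over all genes therefore depend in part on gate size, and the 2 libraries are not compared by them.

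In the summed UMIs of AT1-gated cells, 6 chains were lower in the Cebpa KO library than in the Cebpa FF library. A 2-fold difference is used throughout as a mark of size, for genes with at least 50 UMIs over both libraries, and the 95% interval of each ratio covers counting error only. The AT1 gate held 458833 UMIs in Cebpa FF and 108353 in Cebpa KO. Genes thus reached the minimum there mostly through Cebpa FF, the library in which these members stood higher. In the AT1 gate 6 members reached 50 UMIs, and 5 of them were at least 2-fold lower, as were 9.05% of the 1988 genes; none was at least 2-fold higher, against 5.68%. The log2 ratio of Cebpa KO over Cebpa FF was -2.21 (-3.18 to -1.38) for Lama3, -2.07 (-2.61 to -1.57) for Col4a4, -1.25 (-1.66 to -0.87) for Col4a3, -1.20 (-1.66 to -0.76) for Col4a2, -1.19 (-2.04 to -0.45) for Col4a5 and -0.88 (-1.31 to -0.47) for Col4a1. With every cell given the same weight the log2 ratio was 0.23 for Col4a1, 0.082 for Col4a3 and -0.11 for Col4a2. It was -0.77 for Col4a5, -1.04 for Col4a4 and -1.30 for Lama3. The sign thus turned for Col4a1 and Col4a3, and only Col4a4 and Lama3 stayed past 2-fold. The median of the summed ratios was -1.23 for these members and -0.02 for all genes of the gate. Lama5, with 29 UMIs in all, and Lama4 and Nid1, with 1 UMI each, fell under the minimum.

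Several measures moved with the AT1 result, and their part in it was not tested. The AT1 marker list, all 5 of 5 detected, summed to 29854 CPM in Cebpa FF and to 13124 in Cebpa KO, with Ager, the receptor that marks AT1 cells, at 18408 and 8020. Of the 4 AT1 markers outside the gate, Pdpn stood at 854 and 378, Emp2 at 6024 and 3119, Igfbp2 at 2859 and 1191, and Aqp5, the least different, at 2567 and 2113. The endothelial list, all 7 of 7 detected, summed to 445 and 1744, and the immune list to 6.54 with 3 of 6 detected and 148 with 5 of 6 detected. The fibroblast list, 7 of 8 detected in each, summed to 107 and 305, and all 5 mesothelial markers were at 0 in both libraries. Among the 29 Cebpa KO cells the richest cell for Col4a4 held 38.2% of its UMIs. The richest cell for Col4a5, not necessarily the same cell, held 56.2% of its UMIs. The share of AT1-gated cells with a Col4a3 UMI was 43.4% (46 of 106) in Cebpa FF and 72.4% (21 of 29) in Cebpa KO, and 44.9% and 33.3% after thinning to 1000 UMIs. In immune cells the share was 0.8% and 0.494%. The median was 1727 and 2014 UMIs per cell in the AT1 gate and 6687 and 6124 in the immune gate.

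**Figure D4:**
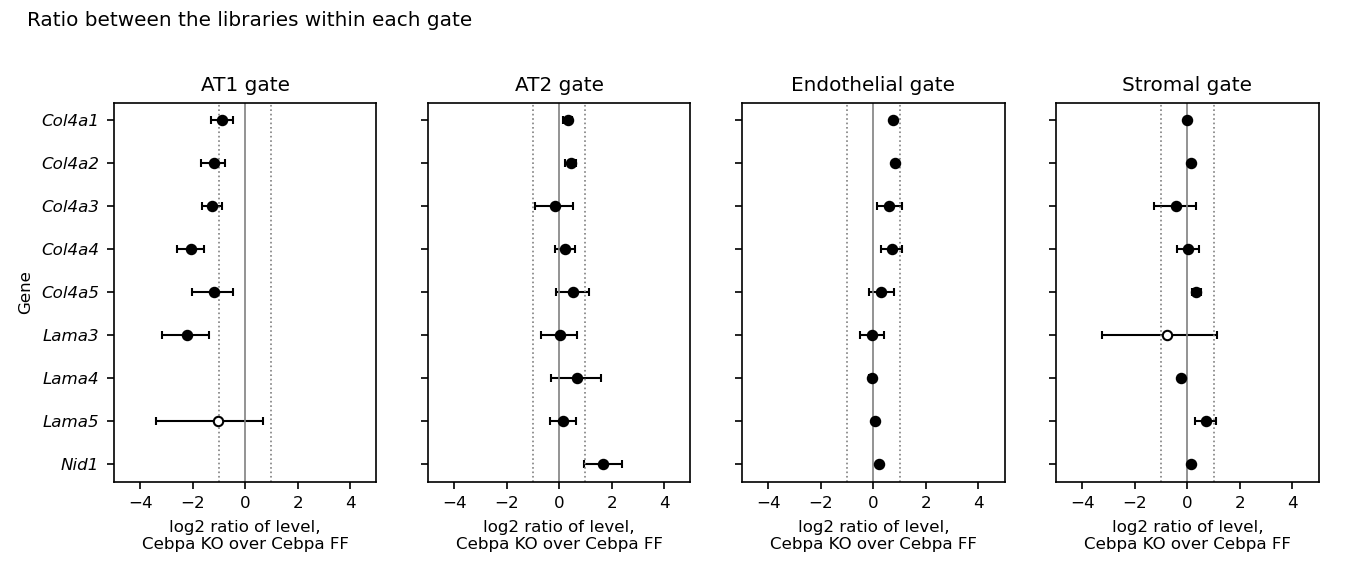
Log2 ratio of each gene's level, Cebpa KO over Cebpa FF library, in the AT1, AT2, endothelial and stromal gates; bars are exact binomial 95% intervals (counting error only), open circles have under 50 UMIs, and dotted lines mark 2-fold. In the AT1 gate 5 genes lie beyond 2-fold on the lower side, and in the AT2 gate Nid1 lies beyond 2-fold on the higher side.

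The lower AT1 levels were seen in the deeply captured cells. Cells with at least 3000 UMIs numbered 39 in Cebpa FF and 8 in Cebpa KO, and held 82.6% and 67.0% of the UMIs of the gate. In them Col4a3 stood at 1548 and 455, Col4a4 at 1535 and 317, and Lama3 at 588 and 96.5 in Cebpa FF and Cebpa KO. In the 67 and 21 shallower cells Col4a3 stood at 351 and 782, Col4a4 at 263 and 307, and Lama3 at 151 and 139.7. Among shallow cells the level of Col4a3 was thus higher in Cebpa KO, with a log2 ratio of 1.16 (0.35 to 1.96), while for Col4a1, Col4a2, Col4a4, Col4a5 and Lama3 the interval included 0. Ager followed the same split, at 20448 and 6628 in deep cells and 8706 and 10842 in shallow ones. Other AT1 markers did not all do so. In shallow cells Aqp5 (1380 and 1677) and Igfbp2 (1581 and 1928) were higher in Cebpa KO, and Pdpn was level (527 and 531). Rtkn2 (828 and 503), Emp2 (4115 and 3521) and the summed AT1 marker list (21138 and 16598) were lower there. The split by depth was added after the data were seen.

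**Figure D5:**
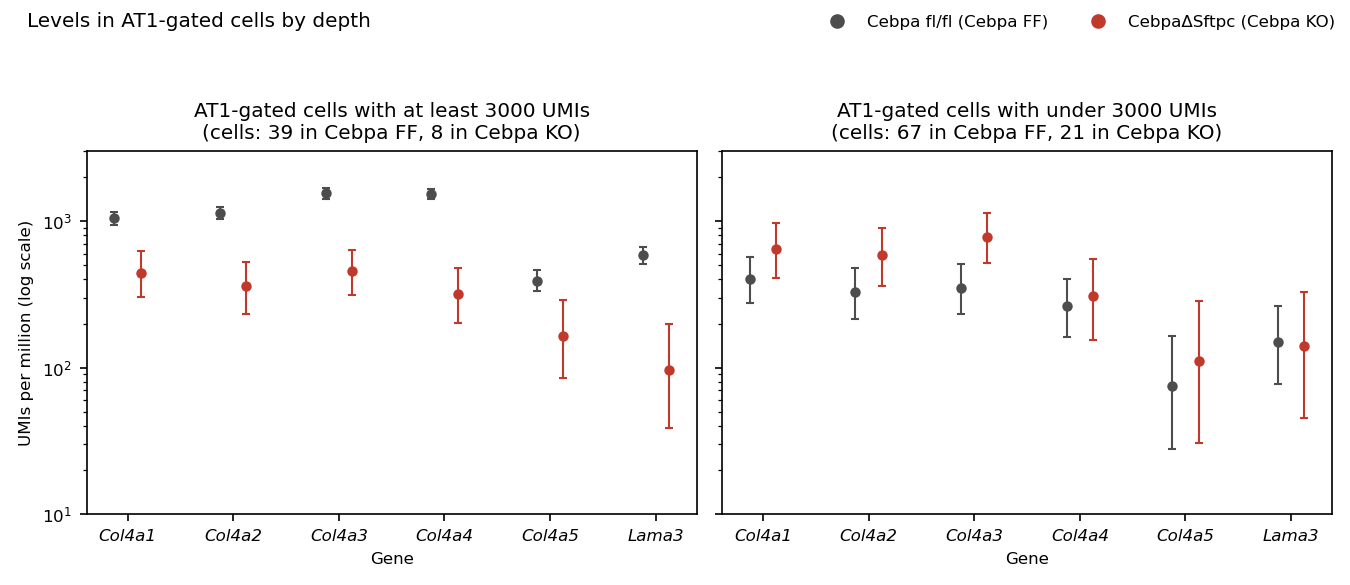
Levels of 6 genes (CPM, log axis) in AT1-gated cells with at least 3000 UMIs (left) and under 3000 UMIs (right); grey is Cebpa FF, red is Cebpa KO, and bars are exact Poisson 95% intervals (counting error only). All 6 lie lower in Cebpa KO among the deep cells, whereas among the shallow cells the intervals overlap for Col4a1, Col4a2, Col4a4, Col4a5 and Lama3.

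In AT2-gated cells, where the Sftpc promoter drives Cre, Nid1 was the only member past 2-fold. Nid1 stood at 5.29 (3.91 to 6.99) in Cebpa FF and at 17.0 (11.1 to 24.9) in Cebpa KO, a log2 ratio of 1.68 (0.94 to 2.40). It rested on 49 and 26 UMIs. Immune cells stood at 11.3 and 7.67 for Nid1 (10 and 117 UMIs), so the AT2 level in Cebpa FF was not above the immune background. That was 1 of 9 members at least 2-fold higher, against 3.19% of 9792 genes; none was at least 2-fold lower, against 0.848%. The other 8 members had log2 ratios from -0.16 (Col4a3) to 0.68 (Lama4), with Col4a1 at 0.32 and Col4a2 at 0.45, and the median was 0.32 for the members and 0.13 for all genes. Depth and other markers moved with the genotype here, and their part was not tested: the median was 21055 UMIs per cell in Cebpa FF and 1670 in Cebpa KO. The immune list summed to 3.35 and 180.2 CPM, with 6 of 6 detected in both libraries, and the smooth muscle list to 24.4 and 151, with 5 of 5 detected. The fibroblast list summed to 125 and 215, with 8 of 8 detected, and the endothelial list to 582 and 806, with 7 of 7 detected. In cells with at least 3000 UMIs the Nid1 log2 ratio was 0.51.

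Over the whole endothelial gate the common collagen IV chains were higher in Cebpa KO while the member laminin chains were about level. Col4a1 had a log2 ratio of 0.77 (0.74 to 0.79) and Col4a2 of 0.84 (0.81 to 0.88). Nid1 stood at 0.20, Lama5 at 0.06, and Lama4 and Lama3 at -0.05 each. No member passed 2-fold, against 7.1% of 13868 genes higher and 1.04% lower, and the median was 0.31 for the members and 0.02 for all genes. Immune cells also held more of these chains in Cebpa KO, with Col4a1 at 11.3 and 33.3 and Col4a2 at 9.01 and 24.4. The immune marker list in the endothelial gate summed to 11.6 and 270.0, with 6 of 6 detected in each, and its part in the result was not tested.

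By the counts, the collagen difference in endothelium was larger in general capillary cells than in aerocytes, venous or lymphatic cells, for both chains. Col4a1 stood at 633 and 1254 in general capillary cells, a log2 ratio of 0.99 (0.95 to 1.02), and Col4a2 at 318 and 656, a log2 ratio of 1.05 (1.0 to 1.09). Col4a2 was the only 1 of 8 members past 2-fold there, against 4.98% of 12317 genes. Aerocytes stood at 613 and 841 for Col4a1, a log2 ratio of 0.46 (0.41 to 0.50), and at 383 and 557 for Col4a2, 0.54 (0.48 to 0.60). Venous cells stood at 308 and 356 for Col4a1, a log2 ratio of 0.21 (0.06 to 0.36), and at 125 and 199.9 for Col4a2, 0.67 (0.46 to 0.89). In lymphatic cells the intervals of both chains included 0. In Cebpa FF aerocytes and general capillary cells had nearly the same Col4a1 level, 0.969-fold (0.940 to 0.999). Pericytes had log2 ratios of 0.03 for Col4a1 and 0.17 for Col4a2. Laminin chains that were level over the gate also differed between subsets. Lama4 had a log2 ratio of 0.90 (0.35 to 1.46) in aerocytes and 0.48 (0.26 to 0.71) in general capillary cells. In lymphatic cells Lama4 was at -0.57 (-0.83 to -0.32). Lama5 was at 0.68 (0.38 to 0.98) in aerocytes and 0.14 (0.03 to 0.24) in general capillary cells. In venous cells the intervals of Lama4 and Lama5 included 0. The general capillary cells were 58.0% of the endothelial gate in Cebpa FF and 37.4% in Cebpa KO, and aerocytes 19.1% and 27.2%. Some endothelial cells fell in no subset, a larger part of them in Cebpa KO. The median was 4466 and 5054 UMIs per cell in general capillary cells and 6461 and 2608.5 in aerocytes. The part of depth in these shares and ratios was not tested.

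The stroma as a whole showed no member past 2-fold, whereas ductal myofibroblasts and smooth muscle had members past it. In the stromal gate 8 members were compared, with log2 ratios from -0.44 (Col4a3) to 0.70 (Lama5, 0.31 to 1.09). Col4a5 stood at 0.34, Nid1 at 0.15, Col4a2 at 0.14, Col4a4 at 0.03, Col4a1 at -0.03 and Lama4 at -0.24. Pericytes, with the highest Col4a1 and Col4a2 levels, were 194 of 1708 stromal cells in Cebpa FF and 39 of 1006 in Cebpa KO. In fibroblasts alone Col4a1 stood at 344 and 423, a log2 ratio of 0.30 (0.21 to 0.38), and Col4a2 at 140.2 and 224, a log2 ratio of 0.68 (0.56 to 0.80). Over all 11992 genes of the stromal gate 3% were at least 2-fold higher and 1.11% at least 2-fold lower. Ductal myofibroblasts, 163 cells in Cebpa FF and 104 in Cebpa KO, stood at 157 and 425 for Col4a1, a log2 ratio of 1.43 (1.14 to 1.74), and at 71.7 and 263 for Col4a2, a log2 ratio of 1.87 (1.45 to 2.31). These were 2 of the 5 members compared there, against 2.29% of 4896 genes. Lama4 in the same cells had a log2 ratio of -0.06 (-0.30 to 0.17). In smooth muscle Nid1 was lower, at 87.6 and 43.1 (63 and 24 UMIs), a log2 ratio of -1.02 (-1.77 to -0.32). It was the only 1 of 6 members at least 2-fold lower there, against 3.73% of 4125 genes. The endothelial list in ductal myofibroblasts summed to 477 and 517 CPM and the pericyte list to 64.2 and 54.5, while the smooth muscle list summed to 719 and 1152 and the fibroblast list to 5473 and 9328; their part was not tested.

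Other genes of the basement membrane were read from a list of 39 chains, proteoglycans, assembly enzymes and receptors. In the AT1 gate 15 reached 50 UMIs, and 3 of them were at least 2-fold lower, against the 9.05% of all genes given above. With 458833 UMIs in the gate in Cebpa FF and 108353 in Cebpa KO, genes reached that minimum mostly through Cebpa FF. The integrin subunits Itga6 (8.72 and 175 CPM, from 4 and 19 UMIs) and Itga1 (24.0 and 102, from 11 and 11 UMIs) were higher in Cebpa KO but under it. Both stood higher in the endothelial gate, Itga6 at 309 and 324 and Itga1 at 1026 and 771. The endothelial marker list in the AT1 gate summed to 445 and 1744, and its part in these values was not tested. The 3 lower genes were the collagen lysyl hydroxylase Plod2 (386 and 138, log2 ratio -1.48), the laminin receptor Bcam (1325 and 480, -1.47) and dystroglycan, Dag1 (1044 and 461, -1.18). In the endothelial gate 6 of 37 were at least 2-fold higher, against 7.1% of 13868 genes, and none lower, against 1.04%. In the stromal gate 0 of 36 passed 2-fold either way, against 3% of 11992 genes higher and 1.11% lower. In the AT2 gate Itga6, an integrin subunit that binds laminin, was the only 1 of 23 past 2-fold (22.1 and 49.0, log2 ratio 1.15). Of all 9792 genes there 3.19% were at least 2-fold higher and 0.848% at least 2-fold lower.

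The laminin chain Lama1, best known from embryonic basement membranes, had the highest log2 ratio of the 37 genes compared in endothelium. It stood at 4.91 CPM in Cebpa FF (198 UMIs) and 21 in Cebpa KO (724 UMIs), a log2 ratio of 2.10, with immune cells at 0 UMIs and 0.918 CPM. General capillary cells stood at 4.12 and 23.8 and venous cells at 19.0 and 59.4. Aerocytes stood at 0.406 and 3.42, and lymphatic cells held 0 UMIs in both libraries. Col18a1, the chain that releases endostatin, had a log2 ratio of 1.04 over the gate (17.5 and 36.0). It was higher in aerocytes, at 11.9 and 68.3, and lower in venous cells, at 59.3 and 31.7. Hspg2, the proteoglycan perlecan, stood at 9.60 and 33.3 in general capillary cells. The nephronectin gene Npnt, a ligand of integrins, stood at 9.26 and 26.8 in the gate, against 569 and 451 in the stroma. Lama2 and Lamb3 also passed 2-fold, but at levels under 5 in endothelium, and Lamb3 stood at 47.3 and 21.9 in immune cells.

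Genes with the most similar pattern were named by the Pearson correlation of log2 levels over the 16 combinations of gate and library with at least 50 cells, among 14909 genes. The points share libraries and depth, so the values describe and carry no test. AT1 entered only through the Cebpa FF gate of 106 cells. The high values for Col4a3, Col4a4 and Lama3, which peak in AT1-gated cells, therefore rest largely on that single point. Col4a1 was closest to Col4a2 (r = 0.98). Next to Col4a1 came Dlc1 and Fermt2 (0.93 each), and next to Col4a2 came Amotl2 (0.91) and Wwc2 (0.90). Col4a3 came closest to Arxes2, Flrt3 and Scnn1b (0.99 each), and Col4a4 to Arxes2 (0.98), Col4a3 and Radil (0.97 each). Lama3 was closest to Itgb6 and Dapk2 (0.99 each) and to Pard6b (0.98). Col4a5 was closest to the Wnt receptor Fzd2 (0.96), to Limch1 (0.94) and to Trnp1 (0.93). Lama4 was closest to Hoxb3, Etv1 and Rarres2 (0.97 each), and Nid1 to Phldb1 and Plat (0.97 each) and F830016B08Rik (0.96). Lama5 had the weakest companions, Cox7a2 (0.91), Cyb5r3 (0.89) and Bik (0.88).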

How the data were processed

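Lung cells of 2 mouse genotypes were profiled with 10x 3′ chemistry, 1 library each. The authors deposited raw counts (whole UMI counts per gene and barcode) made with Cell Ranger on mm10; the matrix headers give version 5.0.0 and the submitters' processing notes 6.1.1. From these counts, cells were kept from 200 detected genes upward and up to a mitochondrial share of 20%, and doublets were not removed. A cell entered a gate with at least 3 UMIs from at least 2 markers of that list and at least 2 times the UMIs of each of the other main lists. UMIs were summed per gate and library and divided by the total. Levels carry exact Poisson intervals, ratios exact conditional binomial intervals, shares Clopper-Pearson intervals; sums of 0 to 2 were set at 3 UMIs in ratios. For thinning, each cell was cut to 1000 UMIs and shallower cells were left out. With 1 library per genotype no test was run, and the interval of a value says nothing of variation between mice.

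All 9 members are named. Other genes are given by count, with values for those past 2-fold or that are partners, linkers or receptors of a member; for each member the 3 genes of highest correlation are named. The correlation used log2(CPM + 10) and genes with at least 100 UMIs. The lymphatic levels of Nid2, Lamb1 and Lamc1 and the subset levels were picked after their values were seen. The members and lists were chosen with earlier results of these data known. Alternatives changed the gates, filters, depth, denominators and weights. Gene positions are from GENCODE M21, whose IDs matched for all members. Python 3.11.15, numpy 2.4.6, pandas 2.3.3, scipy 1.17.1 and matplotlib 3.10.9 were used, and the ratio step was tested on simulated data. A listed gene past 2-fold is not reported here.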

Additional observations from a re-analysis of the deposited data

Results flagged for a closer look

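Between gates of the same libraries, the log2 ratio of Cebpa KO over Cebpa FF lay on opposite sides of 0, each with an interval that left out 0, for the 5 collagen IV chains. The difference between gates was not tested, since there was 1 library per genotype. For Col4a1 the log2 ratio was -0.88 in the AT1 gate, 0.32 in the AT2 gate and 0.77 in the endothelial gate. For Col4a2 it was -1.20 in the AT1 gate, 0.45 in the AT2 gate, 0.84 in the endothelial gate and 0.14 in the stromal gate. Col4a3 stood at -1.25 in the AT1 gate and 0.61 in the endothelial gate. Its endothelial level was low, at 1.79 and 2.73 CPM against 1.13 and 0.590 in immune cells. Its endothelial log2 ratio was -0.26 when marker UMIs had to reach 4 times those of other lists. In the AT1 gate its log2 ratio was 0.082 with cells weighted equally. Col4a4 stood at -2.07 in the AT1 gate and 0.70 in the endothelial gate. The endothelial level of Col4a4 was also low, at 2.18 and 3.55 CPM against 2.25 and 1.57 in immune cells. In Cebpa FF it was thus not above the immune background. Col4a5 stood at -1.19 in the AT1 gate and 0.34 in the stromal gate.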

How the results depend on the processing

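Of 90 counts recomputed under alternatives, 82 stayed within 1.5 times the value given and 8 did not. A count of 0 that stayed 0 is among the 82, and most counts between the libraries were 0. The count of members at least 2-fold lower in the AT1 gate, 5, was 3 when a gate needed at least 5 UMIs from at least 3 markers and 2 with cells weighted equally. Counts in this paragraph that stand without a share of all genes are not read against that background. The AT2 count higher, 1, was 0 when marker UMIs had to reach 4 times those of other lists, where Nid1 (log2 ratio 1.55) no longer reached 50 UMIs, and 0 in cells with at least 3000 UMIs, where it was 0.51. The endothelial count higher, 0, was 1 with cells weighted equally and 4 with the immune level subtracted, where the stromal count was 1; 14.5% of all genes in the endothelial gate and 41.0% in the stromal gate passed under that subtraction. With endothelial and stromal gates split, 3 members, not 6, led by 2-fold in Cebpa KO, against 52.0% of genes. The split gates included 6 arterial cells of Cebpa KO with 33102 UMIs, where lower sums were set at 3 UMIs. In so small a gate that floor is a high level, and low genes can count as led by it. The 52.0% and the 3 members therefore depend in part on gate size. Lama4 and Nid1, however, lost their 2-fold lead among split gates of similar level. In Cebpa KO Lama4 stood at 401 in lymphatic cells and 367 in pericytes, and Nid1 at 399 in pericytes and 292 in fibroblasts. The other causes were not tested. The log2 ratios of members recomputed include those of subsets of the endothelial and stromal gates and of shallow AT1-gated cells. These are other sets of cells, so the counts that follow do not measure processing alone. Among these ratios, 258 of 332 moved by less than their counting interval, 69 moved by more and 5 reversed: Col4a3 in AT1-gated cells was 0.082 with cells weighted equally, where Col4a1 was 0.23. In AT1-gated cells under 3000 UMIs, added after the data were seen, Col4a2 was 0.85, Col4a3 1.16, Col4a4 0.22 and Col4a5 0.57. The endothelial ratio ran from 0.67 to 0.82 for Col4a1 and from 0.74 to 0.90 for Col4a2 over 8 alternatives, and that of Nid1 in AT2-gated cells from 0.51 to 4.85. The 4.85 came with the immune level subtracted, where the Cebpa FF level of Nid1 fell to the floor of 3 UMIs. No replicate could be left out, and no paired analysis was possible because each genotype has 1 library with no replicate number. The 29 AT1-gated cells of Cebpa KO limit every AT1 value.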
